A study of Mus musculus with 4 samples.

Results

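Respiratory chain genes were examined in 82 single cells sorted for the red reporter tdTomato from the Penk-Cre Ai9 mouse line, where Cre driven by Penk turns the reporter on. The members were the rows whose symbols begin with mt-, Nduf, Cox and a digit, Uqcr or Atp5, together with Sdha, Sdhb, Sdhc and Sdhd. They numbered 141 of 15305 gene rows. Of these, 25 were encoded by the mitochondrial genome, namely 8 protein-coding genes, 2 ribosomal RNAs and 15 transfer RNAs. The other 116 were nuclear-encoded and comprised 81 subunits, 18 assembly factors, the ATP synthase inhibitor Atp5if1 and 16 pseudogenes or gene copies. Only Cox6a2 had no count in any cell. The mitochondrial genes mt-Co2, mt-Co3, mt-Atp6, mt-Atp8 and mt-Nd4l had no row under these names. The mitochondrial protein-coding part therefore held no complex V gene and only mt-Co1 of complex IV.

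The tissue was labelled as subventricular zone and striatum and the genotype as WT, and no age was given. Dataset A held 41 cells sorted as reporter-positive and negative for the microglial surface protein CD11b, all on 1 plate. Dataset B held 41 cells sorted as reporter-positive without that gate, on 4 plates. The labels named neuroblasts and quiescent neural stem cells, but the table named each cell only by dataset, plate and well, so cells were classed by 2 genes that are not members. Enpp2-rich cells had Enpp2, which encodes the secreted lysophospholipase autotaxin, at 1% or more of their counts. Sox11 cells had 10 or more counts of Sox11, a transcription factor of immature neurons, without being Enpp2-rich, and the remaining cells are called the rest. Enpp2-rich cells numbered 32, with 16 in each dataset. Sox11 cells numbered 41, with 16 in dataset A and 25 in dataset B. The rest numbered 9 and lay in dataset A only, so the rest was described and not tested.

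The Enpp2 threshold fell between a cell at 0.999% and a cell at 1.25% of counts, and the Sox11 threshold between cells with 7 and 20 counts. Both rules were met by 2 dataset A cells, which were counted as Enpp2-rich. Counts per cell without Ttr and Enpp2 ranged from 528221 to 3353557. Enpp2-rich cells had fewer genes with a count (medians 1264 and 1475 in datasets A and B) than Sox11 cells (1698 and 1817). The 8 summed genes of the choroid plexus epithelium list, which left out Ttr and Enpp2, reached 13137 and 9652 counts per 1000000 (CPM) in the Enpp2-rich pools. Cells ranged from 534 to 36720 CPM in dataset A and from 4650 to 24538 CPM in dataset B. In dataset A 8 of the 8 genes had more than 3 counts, and in dataset B 6 did, with Aqp1 and Slc4a5 at 3 counts or fewer. The Sox11 pools had 492.8 and 0.0780 CPM of the list, with 1 cell of dataset A at 15464 CPM and a median cell at 1.42 CPM. The part of choroid plexus transcripts in the results below was not tested. The neuroblast list summed to 18286 and 29050 CPM in the Sox11 pools, against 367 and 434 CPM in the Enpp2-rich pools. The microglia list summed to 2510 CPM in the Sox11 pool of dataset A, and to 0 to 12.6 CPM in the other 4 pools. The Sox11 cell in well G7 alone had 23532 CPM of it, with 50264 counts of Tyrobp, 15335 of Csf1r and only 20 of Sox11. That cell had 3.26% of its counts in nuclear subunits and 1.04% in mitochondrial protein-coding genes. The alternative with Sox11 at 100 or more counts leaves it out. The astroglial and quiescent stem cell list was at 24276 CPM in the rest, 11461 and 2788 CPM in the Enpp2-rich pools and 1373 and 512 CPM in the Sox11 pools. Clu alone gave 10957 and 2358 CPM of the Enpp2-rich values, and Glul reached 10 counts in 6 and 7 Enpp2-rich cells. Slc1a2 and Aldoc did so in at most 2 Enpp2-rich cells per dataset, and Gja1, Slc1a3 and Aqp4 in at most 1. Gfap was at 3 counts or fewer in the rest and in both Enpp2-rich pools.

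The respiratory chain passes electrons from NADH (complex I) or succinate (complex II) through ubiquinone, complex III and cytochrome c to oxygen at complex IV, and the proton gradient made on the way drives the ATP synthase, complex V. Complex II is wholly nuclear-encoded, whereas the other complexes combine nuclear subunits with a few made inside the mitochondrion. Neural stem cells are known to rely largely on glycolysis and on fatty acid oxidation, with oxidative phosphorylation gaining weight as they become neurons, and the choroid plexus epithelium is known for abundant mitochondria.

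Both parts of the respiratory chain took a larger share of the pooled counts in Enpp2-rich cells than in Sox11 cells in both datasets, although on plate P1 of dataset B the mitochondrial part was lower in the Enpp2-rich cells. Shares are percentages of a cell's or pool's counts with Ttr and Enpp2 removed, and a pool is the sum over all cells that share class and dataset. The 8 mitochondrial protein-coding genes made up 10.4% and 5.00% of the Enpp2-rich pools in datasets A and B, against 2.91% and 2.24% of the Sox11 pools. That was a 3.59-fold difference in dataset A and a 2.23-fold one in dataset B. The 81 nuclear subunits made up 8.76% and 5.76% of the Enpp2-rich pools, against 2.89% and 1.07% of the Sox11 pools, or 3.03-fold and 5.41-fold. Without the cell in well E10 the first share was 5.44%, or 1.88-fold. With 2 pools a class, the exact two-sided permutation test cannot give a p below 0.333, which it gave for the mitochondrial sum and for each of the 5 nuclear complexes (0.333 after Benjamini-Hochberg adjustment over these 6). CPM and shares are relative, and the amount of RNA in a cell was not measured.

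Among single cells of dataset B, the nuclear subunits separated the classes. They took 3.81% to 8.27% of counts in the 16 Enpp2-rich cells (median 5.39%) and 0.559% to 2.20% in the 25 Sox11 cells (median 1.10%), and the ranges did not overlap. This held within each plate that carried both classes. Plate P1 had 5.49% to 5.99% in 2 Enpp2-rich cells against 0.785% to 1.40% in 12 Sox11 cells, and plate P3 had 6.79% to 8.27% in 4 against 0.856% to 1.14% in 3. Plate PL4 had 3.81% to 5.85% in 10 against 0.559% to 1.24% in 4. In dataset A the ranges overlapped, with 1.95% to 36.0% (median 4.43%) in Enpp2-rich cells and 0.482% to 14.5% (median 1.498%) in Sox11 cells.

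In dataset A 5 cells stood apart with more than 10% of their counts in nuclear members, and none did in dataset B. The Enpp2-rich cell in well E10 had 36.0% of its counts in nuclear subunits, with Atp5me at 8.75%, Uqcr11 at 6.57% and Uqcr10 at 4.06%. That cell supplied 44.6% of the nuclear subunit counts of its pool, and also met the Sox11 rule with 443 counts. The others were Enpp2-rich cell A8 at 15.3%, Sox11 cells H6 at 14.5% and C3 at 14.2%, and cell F12 of the rest at 11.7%. H6 lay just under the Enpp2 threshold and had 78.2% of all its counts in Ttr. Without these 5 cells, the nuclear subunits made up 4.29% of the Enpp2-rich and 1.597% of the Sox11 pool of dataset A, or 2.69-fold.

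**Figure D1:**
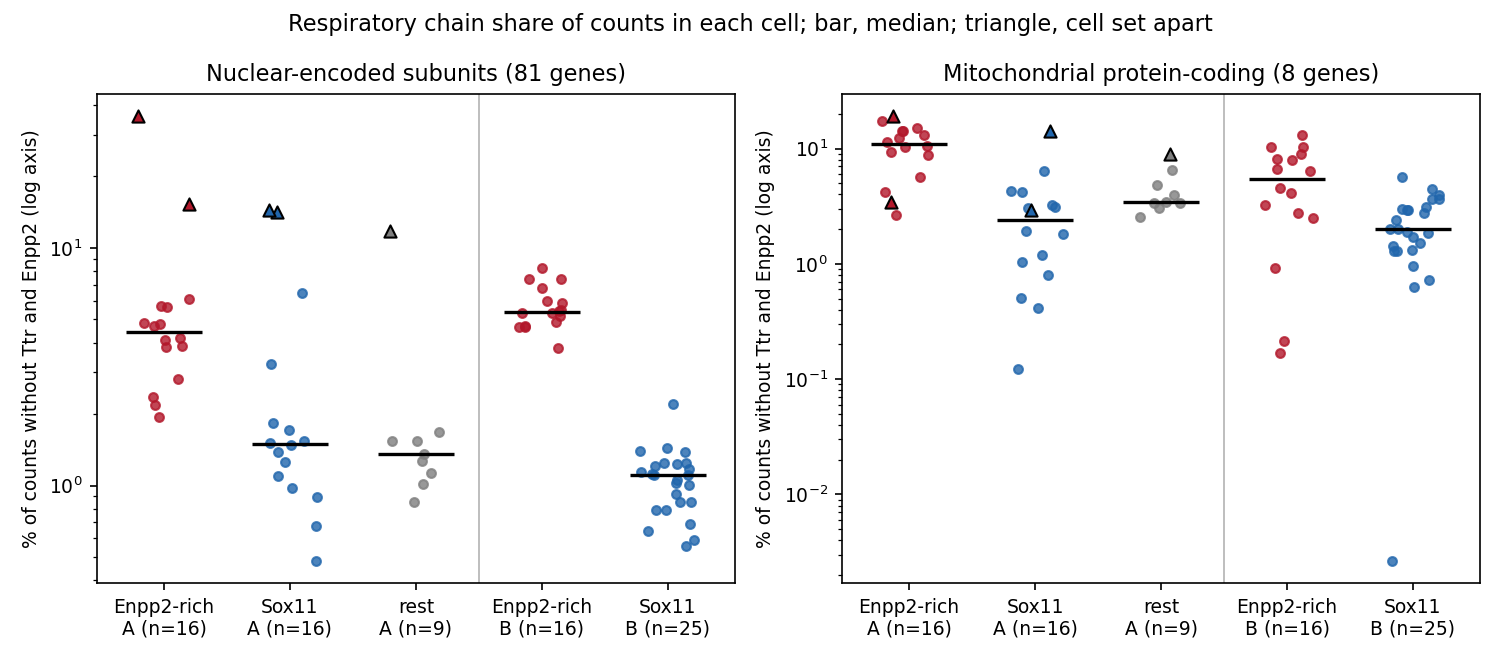
Each point is 1 cell, the vertical log axes give the percentage of counts without Ttr and Enpp2, and columns give class and dataset with the number of cells; bars are medians and triangles the 5 cells set apart. For nuclear subunits the Enpp2-rich and Sox11 cells of dataset B do not overlap, with medians of 5.39% and 1.10%, whereas the mitochondrial shares overlap in both datasets.

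The mitochondrial protein-coding genes overlapped between classes among the single cells of each dataset. In dataset A they took 2.67% to 19.2% of counts in Enpp2-rich cells (median 10.9%) and 0.122% to 14.1% in Sox11 cells (median 2.41%). In dataset B they took 0.167% to 13.1% (median 5.42%) against 0.00265% to 5.63% (median 1.99%). The rest had 2.53% to 8.88% (median 3.43%), between the medians of the other classes of dataset A. The plates of dataset B differed in direction. On plate P1 the 2 Enpp2-rich cells, at 0.167% and 0.214%, lay below all 12 Sox11 cells, at 0.628% to 3.93%, and the pooled share was 8.56-fold higher in the Sox11 cells (1.64% against 0.192%). On plate P3 the Enpp2-rich cells had 0.911% to 10.3% and the Sox11 cells 1.99% to 4.42%, and the pooled share was 1.502-fold higher in Enpp2-rich cells. On plate PL4 the values were 2.47% to 13.1% and 1.52% to 3.63%, or 2.88-fold pooled, and the ranges overlapped on these last plates.

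All 8 mitochondrial protein-coding genes were higher in the Enpp2-rich pool in both datasets, against 22.2% of all genes tested, and 5 were so by 2-fold or more in each, against 13.5%. None passed edgeR's quasi-likelihood test. mt-Nd1, a membrane subunit of complex I, was at 27083 and 12028 CPM in the Enpp2-rich pools and at 5578 and 4212 CPM in the Sox11 pools of datasets A and B. Its edgeR log2 difference was 2.28 ± 1.04 (SE), with an adjusted p of 0.491. mt-Cytb, the cytochrome b of complex III, was at 38160 and 22659 CPM against 13218 and 11441 CPM, or 2.89-fold and 1.98-fold. mt-Co1, the catalytic subunit of complex IV, was at 16350 and 7094 CPM against 4429 and 4508 CPM, or 3.69-fold and 1.57-fold.

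The other complex I genes of the mitochondrial genome ranged more widely. mt-Nd4 was 4.79-fold and 3.36-fold higher in Enpp2-rich pools, mt-Nd5 5.05-fold and 4.28-fold, and mt-Nd2 2.82-fold and 3.30-fold. For mt-Nd5 1 Sox11 cell gave 56.6% of the counts of dataset B, and without it the difference there was 9.40-fold. mt-Nd6, the gene on the light strand, was 2.66-fold and 5.65-fold higher; its annotated span overlaps that of mt-Nd5 on the opposite strand by 14 bases. Sox11 cell H6 gave 69.1% of the mt-Nd6 counts of its pool, and without it the difference in dataset A was 8.34-fold. mt-Nd3 had few counts, at 41.9 and 8.01 CPM against 4.19 and 4.92 CPM. The dataset B ratio was 0.516 without 1 Enpp2-rich cell and 2.67 without 1 Sox11 cell. Sox11 cell H6 gave 91.8% of the Sox11 counts of dataset A, and the pool was at 0.353 CPM without it.

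Per 1000 bases of exon, mt-Cytb had the highest level of the 8 genes in all 5 pools, from 10001 CPM in Sox11 cells of dataset B to 33357 CPM in Enpp2-rich cells of dataset A. mt-Nd3 had the lowest per-length level in all 5, from 12.03 to 120.4 CPM. Of the mitochondrial protein-coding counts, mt-Nd1 took 25.96% and 24.1% in Enpp2-rich pools and 19.2% and 18.8% in Sox11 pools, and mt-Cytb took 36.6% and 45.3% against 45.5% and 51.1%. In the rest mt-Co1 took 28.0%, against 14.2% to 20.1% in the other pools.

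**Figure D2:**
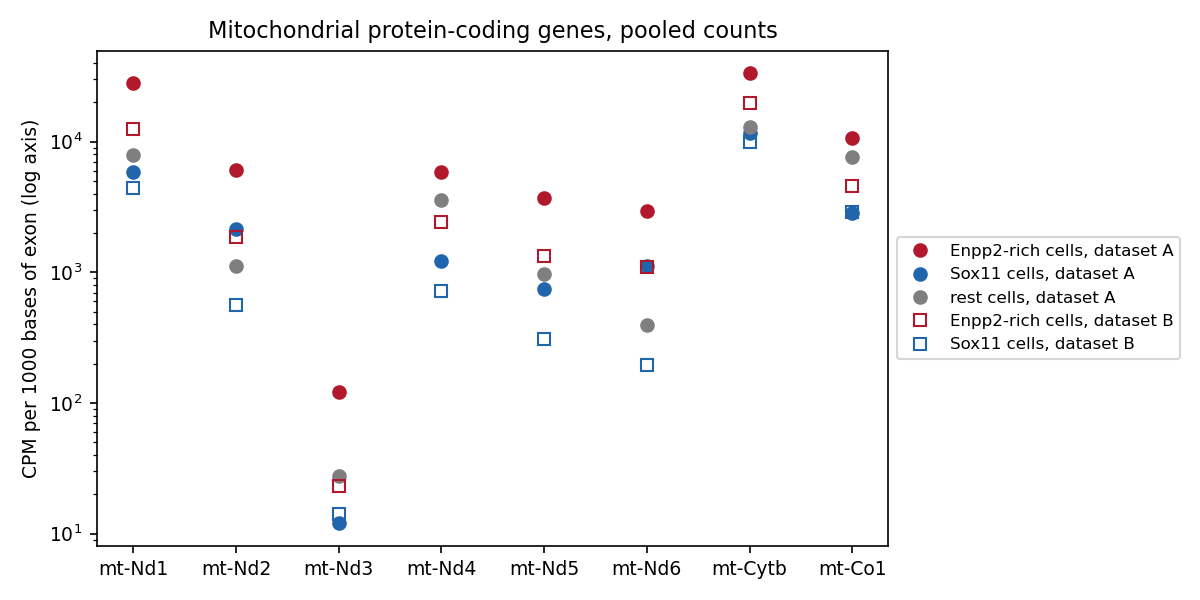
The vertical log axis gives pooled CPM per 1000 bases of exon for the 8 mitochondrial protein-coding genes, colours give the class, filled circles dataset A and open squares dataset B. mt-Cytb is highest and mt-Nd3 lowest in each of the 5 pools.

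The mitochondrial ribosomal RNAs mt-Rnr1 and mt-Rnr2 together made up 2.62% and 0.470% of the Enpp2-rich pools and 1.27% and 0.306% of the Sox11 pools, or 2.07-fold and 1.54-fold. For them the datasets differed more than the classes, with dataset A above dataset B by 5.58-fold in Enpp2-rich and 4.15-fold in Sox11 cells, and by 3.18-fold and 2.54-fold without the cells set apart. Single cells gave 33.7% and 26.4% of the ribosomal RNA counts of the 2 dataset A pools. The 15 transfer RNAs were 16.9-fold and 28.4-fold higher in dataset A than in dataset B in these classes, at 0.143% against 0.00846% and 0.0566% against 0.00199%. Single cells gave 66.1% and 56.7% of the transfer RNA counts of the Enpp2-rich and Sox11 pools of dataset A. Without the cells set apart the dataset differences were 3.06-fold and 7.19-fold. Each sort is 1 sample, so no test between datasets was made; sort, plate and gate cannot be told apart.

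Within the Enpp2-rich cells, the mitochondrial share followed other properties of the cell. Across the 16 cells of dataset B, it had a Spearman correlation of 0.915 with the share of Ttr and of -0.918 with the number of genes with a count. In dataset A the values over 16 cells were 0.729 and -0.527. Over the 10 Enpp2-rich cells of plate PL4 alone, they were 0.830 and -0.879. The cells of a dataset come from 1 sort and differ in depth, and the values are descriptions without a test. The mitochondrial and nuclear shares had negative Spearman correlations, at -0.153 in dataset A, -0.529 in dataset B and -0.564 on plate PL4. Both are shares of the same total, and the part of this in the correlations was not tested. In the Sox11 cells the correlation of mitochondrial share with gene number was -0.113 and 0.0423.

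Gene by gene, edgeR called none of the 7343 genes tested at an adjusted p of 0.05 between Enpp2-rich and Sox11 pools (0% called), and 779 had an unadjusted p under 0.05. DESeq2 called 2759 of 13186 genes (20.9%) and 7 of the 140 members it tested. The pools varied widely, and their common dispersion was 3.42. Of the 141 members 125 passed the filter on low counts and were tested, and their lowest adjusted p in edgeR was 0.424. An unadjusted p under 0.05 with a higher level in Enpp2-rich cells was found for 11 of the 125, against 4.26% of all genes tested. A change of 2-fold or more in log2(CPM + 1) in the same direction in both datasets served as a description. It was met in the direction of Enpp2-rich cells by 57 members, against 13.5% of all genes tested, and in the opposite direction by 1 member, against 24.5% of all genes tested.

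Of the 81 nuclear subunits 80 were tested. At least 2-fold higher in Enpp2-rich cells in both datasets were 44, and 0 were 2-fold lower in both. Higher by any amount in both datasets were 64, against 22.2% of all genes tested. The median log2 difference in edgeR was 1.99 over the 80, against -0.41 over all genes tested, and 78 were positive, against 44.2% of all genes tested. Without cell E10 43 of the 80 were at least 2-fold higher in both, and 49 were without the 5 cells set apart. Of the 44, 31 met the 2-fold rule whichever pool lost its largest cell for that gene. Single cells weighed more in dataset A. Leaving out the largest cell of either pool moved the dataset A fold by over 1.5 times for 68 of 79 subunits with a fold and turned its direction for 24. In dataset B it moved 20 of 77 and turned 1. The counts with a largest cell left out were made for the subunits only, with no share over all genes beside them. The median over the 8 mitochondrial protein-coding genes was 2.099.

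Nuclear subunits were also detected in more of the Enpp2-rich cells. The median cell had 10 or more counts for 52 of the 81 subunits in dataset A and 61.5 in dataset B, against 27 in the Sox11 cells of both datasets and 24 in the rest. After thinning to 800000 counts a cell, the medians were 51.5 and 61 against 25 and 27, and 23 in the rest; 3 shallower cells were left out. A larger share of Enpp2-rich than of Sox11 cells held 10 or more counts for 79 of the 81 subunits. The same count was not made over all genes, so it is not read as particular to the subunits. The mean share of cells over the subunits was 70.0% in Enpp2-rich, 36.0% in Sox11 and 25.2% in the rest. Over all genes, the median cell had 10 or more counts for 838.5 and 1085.5 genes in Enpp2-rich and 1216.5 and 1248 in Sox11 cells. The subunits made up medians of 5.92% and 5.69% of those genes, against 2.40% and 2.12%.

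**Figure D3:**
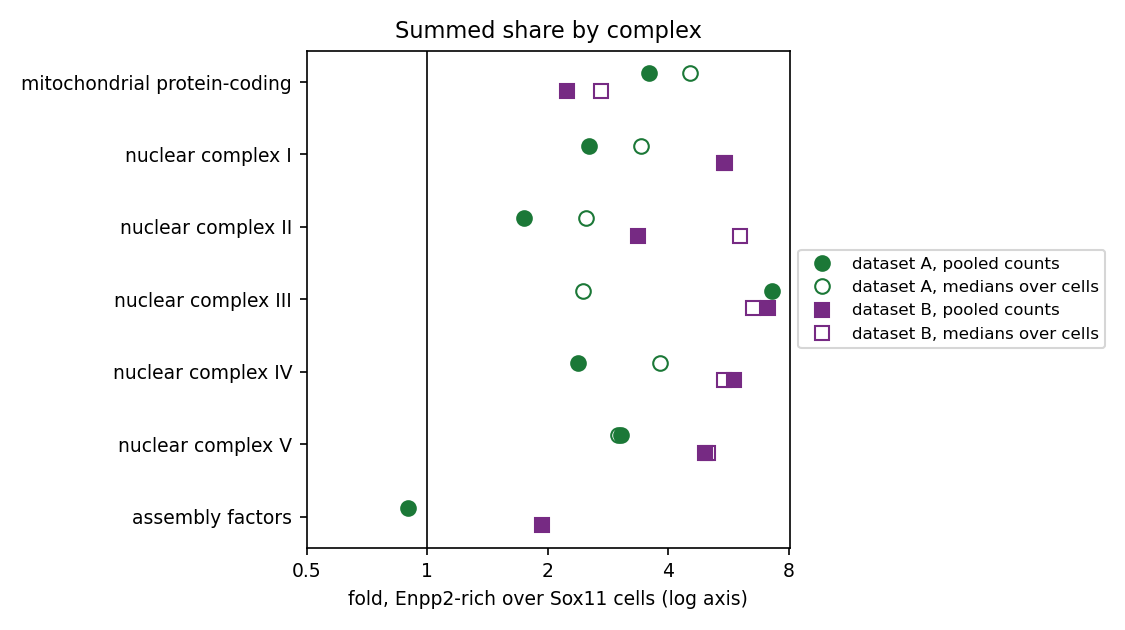
Points give the fold of the summed share in Enpp2-rich over Sox11 cells on a log axis, with dataset A as circles and dataset B as squares, filled for pooled counts and open for medians over cells. The 5 nuclear complexes and the mitochondrial genes lie above 1 in both datasets, and complex III of dataset A moves from 7.26 for pooled counts to 2.45 for medians.

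Complex I, which takes electrons from NADH, was 2.54-fold higher in the Enpp2-rich pool in dataset A and 5.53-fold in dataset B, over its 37 nuclear subunits. In dataset B cells ranged from 1.43% to 3.12% against 0.0340% to 0.771%, with no overlap. Of its subunits 18 were at least 2-fold higher in both datasets, against 13.5% of all genes tested. The 7 core subunits, which hold the flavin and the iron-sulfur clusters, were 3.80-fold and 4.13-fold higher together, and the 30 accessory subunits 2.46-fold and 5.95-fold.

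Ndufs8, an iron-sulfur core subunit, was at 924 and 676 CPM in the Enpp2-rich pools and at 101 and 72.6 CPM in the Sox11 pools. It had counts in 13 of 16 and 11 of 16 Enpp2-rich cells, and its log2 difference was 3.42 ± 1.11 (SE), with an adjusted p of 0.435 in edgeR. Sox11 cell H6 gave 73.7% of the Sox11 counts of dataset A, and the pool was at 27.4 CPM without it. The Sox11 pool of dataset B was at 44.5 CPM without 1 cell that gave 40.5% of its counts. Ndufa13, an accessory subunit also known as GRIM-19, was at 2817 and 1138 CPM against 600 and 137 CPM, and 72.3% of its Sox11 counts in dataset A came from 1 cell. Ndufa7, another accessory subunit, was 2.81-fold higher in dataset B and lower in dataset A at 538 against 667 CPM, where 1 cell gave 77.8% of the Sox11 counts. Ndufs4 went the other way, higher in dataset A by 1.92 in log2(CPM + 1) and lower in dataset B by 0.46. Its dataset A difference was 3.81-fold, and 7.08-fold without Sox11 cell G9. Its dataset B ratio was 0.589 without 1 Enpp2-rich cell and 0.941 without 1 Sox11 cell. Ndufs8, Ndufs4 and the further members Atp5me, Cox6c and Atp5mc3 were chosen for mention after their values were seen.

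Complex II, succinate dehydrogenase, stands in both the citric acid cycle and the respiratory chain. Its 4 subunits summed to 0.113% and 0.336% of the Enpp2-rich pools and 0.0647% and 0.0996% of the Sox11 pools, which was 1.75-fold and 3.37-fold. The rest, at 0.184%, was above both pools of dataset A and below the Enpp2-rich pool of dataset B, and the Enpp2-rich pool of dataset A was at 0.615 times its level. Sdhc and Sdhd, the membrane anchors, were 2.72-fold and 4.82-fold, and 10.95-fold and 3.80-fold, higher in Enpp2-rich pools. Without Sox11 cell C7 the dataset A difference of Sdhc was 4.91-fold, and without Sox11 cell H6 that of Sdhd was 28.3-fold, against 7.02-fold without Enpp2-rich cell B2. Sdhb, the iron-sulfur subunit, was 2.33-fold and 3.50-fold higher, but 1 Enpp2-rich cell gave 52.3% of the dataset A counts and the difference there was 1.17-fold without it, against 3.88-fold without 1 Sox11 cell. Sdha, the flavoprotein, was 2.72-fold higher in dataset B and at 314 against 413 CPM in dataset A. A single Sox11 cell gave 56.6% of the latter, and without it Sdha was 1.64-fold higher in the Enpp2-rich pool; without Enpp2-rich cell B2 it was at 0.443 times the Sox11 pool. Single cells of the Enpp2-rich and Sox11 classes ranged from 0 upwards in both datasets, so these ranges overlapped.

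Complex III, the cytochrome bc1 complex, had the largest pooled difference of the 5 nuclear complexes, 7.26-fold in dataset A and 7.11-fold in dataset B. In dataset A 66.0% of the Enpp2-rich counts came from cell E10, and the pooled difference there was 2.77-fold without it. By medians over cells the ratio was 2.45 in dataset A, the lowest of the 5 complexes, and 6.51 in dataset B, the highest. Uqcr11, a small subunit of the complex, was the member with the lowest p. Its cells ranged from 0 to 65743 CPM (median 1295) in Enpp2-rich and from 0 to 1314 CPM (median 30.4) in Sox11 cells of dataset A. In dataset B they ranged from 289 to 4196 CPM (median 1520) and from 0 to 717 CPM (median 62.7). The ranges overlapped in both datasets, although no Enpp2-rich cell of dataset B lacked the gene and 10 Sox11 cells did. The log2 difference was 5.53 ± 1.45 (SE), with an unadjusted p of 0.0111 and an adjusted p of 0.424 in edgeR. Cell E10 gave 77.6% of the Enpp2-rich counts of dataset A, and the pool fell from 9189 to 2309 CPM without it, or from 56.4-fold to 14.2-fold above the Sox11 pool.

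Uqcr10, its small neighbour in the complex, was at 5200 and 540 CPM in the Enpp2-rich pools and at 248 and 58.3 CPM in the Sox11 pools; cell E10 gave 84.8% of the highest value, which was 888 CPM without it, and cell H6 53.9% of the third. Uqcrb, which lies near the ubiquinone site, was 7.34-fold higher in dataset B, but 11.8-fold without 1 Sox11 cell and 5.49-fold without 1 Enpp2-rich cell. In dataset A it was lower in the Enpp2-rich pool, at 181 against 765 CPM, and 1 Sox11 cell gave 90.0% of the latter.

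Complex V, the ATP synthase, was 3.05-fold and 4.94-fold higher in the Enpp2-rich pools over its 17 subunits, of which 10 were at least 2-fold higher in both datasets, against 13.5% of all genes tested. In dataset A cell E10 gave 60.9% of the Enpp2-rich counts, and the difference was 1.34-fold without it; without Sox11 cell C3 it was 5.12-fold. In dataset B the ranges of single cells, 0.781% to 2.03% and 0.0589% to 0.735%, did not overlap. Atp5pf, the coupling factor 6 of the peripheral stalk, was at 1294 and 1842 CPM against 400 and 362 CPM, with a log2 difference of 2.17 ± 0.92 (SE) and an adjusted p of 0.485 in edgeR. Atp5me, the e subunit, was at 9668 and 255 CPM against 903 and 50.5 CPM, and cell E10 gave 98.2% of the first value. Without that cell the pool was at 197 CPM, below the 903 CPM of the Sox11 pool, of which cell C3 gave 82.97%. Of the 3 genes for the c subunit of the rotor ring, Atp5mc3 was at 266 and 322 CPM against 42.9 and 4.27 CPM. Single cells gave 76.2% and 68.5% of its Sox11 counts. Atp5mc2 was at 27.9 and 20.8 CPM against 0 and 2.61 CPM. A single Sox11 cell gave 59.7% of this last value, which was 1.10 CPM without it.

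Atp5mg, the g subunit, was near 0 in every pool, from 0 to 1.58 CPM. Rows for 3 Atp5l copies, an older symbol of the same gene, were also members, so the assignment of reads between them is uncertain. The inhibitor Atp5if1, which binds the synthase when the gradient fails, was at 856 and 298 CPM in Enpp2-rich and 657 and 294 CPM in Sox11 pools. Its log2 difference in edgeR was 0.58 ± 1.17 (SE). Cell E10 gave 66.3% of the first value, which was 324 CPM without it, and the log2 difference was -0.77 without the 5 cells set apart.

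**Figure D4:**
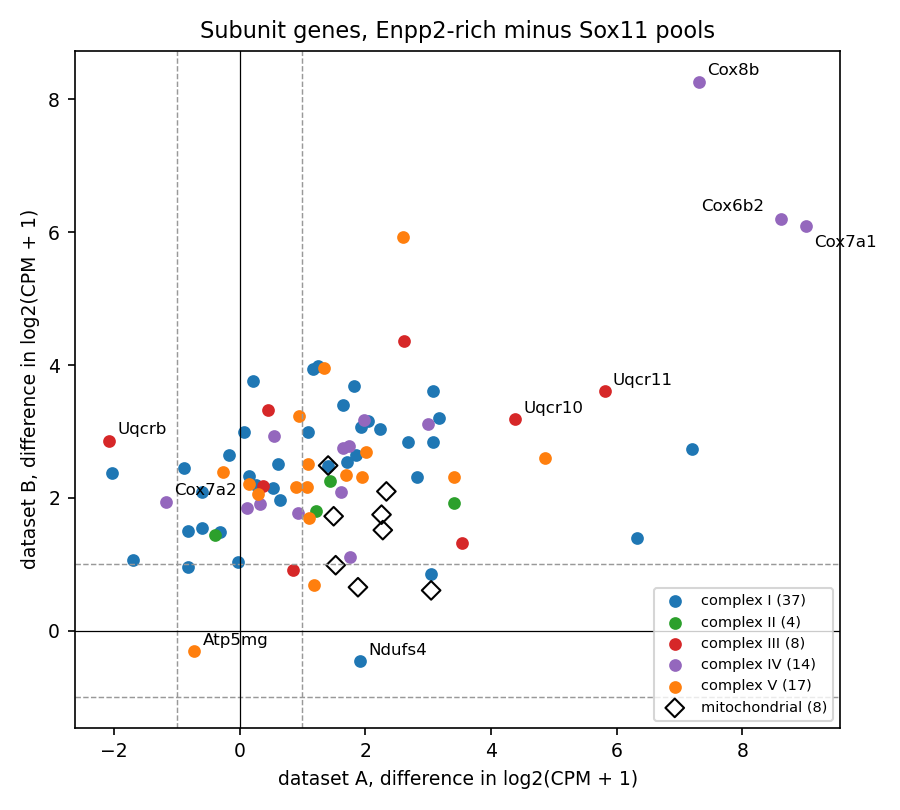
Each point is a tested subunit gene, with the difference in log2(CPM + 1) between Enpp2-rich and Sox11 pools of dataset A on the horizontal axis and of dataset B on the vertical axis; colours give the nuclear complex, open diamonds are mitochondrial genes, and dashed lines mark 2-fold. Of 80 nuclear subunits 44 lie past 2-fold in both datasets in the upper right, and 0 lie past 2-fold in both in the lower left.

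Complex IV, cytochrome c oxidase, was 2.38-fold and 5.83-fold higher in the Enpp2-rich pools over its 15 subunit genes, among which Ndufa4 was counted, and in dataset A it was 3.65-fold without Sox11 cell C3 and 1.80-fold without cell E10. In dataset B cells ranged from 0.769% to 1.61% against 0.0494% to 0.449%, with no overlap. Ndufa4 was at 4785 and 1967 CPM in the Enpp2-rich and 1218 and 217 CPM in the Sox11 pools. Every Enpp2-rich cell had counts of it, whereas 16 of 41 Sox11 cells had none. Cox4i1, the regulatory subunit 4, was 1.46-fold and 7.68-fold higher, and Cox7c 3.42-fold and 2.16-fold. Cox6a1 was 1.25-fold and 3.75-fold higher, and the dataset A ratio was 0.761 without Enpp2-rich cell A8 and 2.18 without Sox11 cell C3. Cox6c was at 1706 and 1010 CPM against 213 and 116 CPM, with a log2 difference of 3.28 ± 1.11 (SE) and an adjusted p of 0.439 in edgeR. Cell E10 gave 61.4% of the first value, which was 739 CPM without it, and cell H6 gave 56.6% of the third.

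The alternative isoforms of complex IV differed between the classes in presence and absence. How many other genes of the table do so was not counted. Cox8b and Cox7a1 are known from heart and skeletal muscle, and Cox6b2 from testis, where they replace the widely expressed Cox8a, Cox7a2 and Cox6b1. At least 1 of the 3 alternative isoforms had 10 or more counts in 25 of 32 Enpp2-rich cells (78.1%, exact 95% interval 60.0% to 90.7%). That was the case in 1 of 41 Sox11 cells (2.44%, exact 95% interval 0.0617% to 12.9%) and in 0 of 9 cells of the rest, with an exact upper bound of 33.6%. Intervals cover counting error only, and cells are not replicates. After thinning, the counts were 25 of 32, 1 of 40 and 0 of 7.

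Cox8b reached 10 counts in 9 of 16 dataset A and 8 of 16 dataset B cells of the Enpp2-rich class. Among those cells it had 39 to 1650 counts (median 402) in dataset A and 238 to 2962 (median 872) in dataset B. The Sox11 pools held 7 and 0 counts in all, and the rest 0. Its unadjusted p in edgeR was 0.0168 and its adjusted p 0.429. The annotation places Psmd13, a proteasome gene, over Cox8b on the opposite strand, and counting without strand could mix the 2 genes. Psmd13 had no count in 13 of the 17 cells with Cox8b and 10 or more counts in the other 4. Over all 82 cells 9 had 10 or more counts of Psmd13, 4 of them Sox11 cells. Annotated spans of other named members also overlap genes of the table, and their counts were not examined in this way. Examples on the opposite strand are Cox7a2l with Eml4, Atp5pf with Jam2, Cox6c with Vps13b and Cox4i1 with Emc8. Ndufa13 overlaps Yjefn3 on the same strand.

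Cox7a1 reached 10 counts in 5 Enpp2-rich dataset A cells and 8 dataset B cells, with 85 to 21107 and 146 to 511 counts. Cox6b2 did so in 3 and 6 cells, with 117 to 16485 and 213 to 565 counts. Cell E10 gave 83.7% of the Cox7a1 and 96.8% of the Cox6b2 counts of the Enpp2-rich pool of dataset A, and none of the counts of dataset B. In the Sox11 pool of dataset A the genes had 28 and 22 counts, and in that of dataset B 0 and 0. All 3 isoforms together were found in 5 Enpp2-rich cells, and 7 had none.

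The widely expressed partners were present in every class. Cox8a had 10 or more counts in 15 and 16 of the 16 Enpp2-rich cells, in 6 of 16 and 12 of 25 Sox11 cells and in 3 of 9 cells of the rest. Cox6b1 was at 1600 and 901 CPM in the Enpp2-rich pools and at 837 and 262 CPM in the Sox11 pools, and the first value was 941 CPM without cell E10 and the third 530.3 CPM without cell C3. Cox7a2 was 3.86-fold higher in dataset B and at 496 against 1123 CPM in dataset A, where 1 Sox11 cell gave 87.4% of the counts. In the Enpp2-rich pools the partners outnumbered the alternative isoforms in counts for Cox8 and Cox6b in both datasets and for Cox7a in dataset B. In dataset A Cox7a1 had 25230 counts, 21107 of them in cell E10, and Cox7a2 had 11793.

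**Figure D5:**
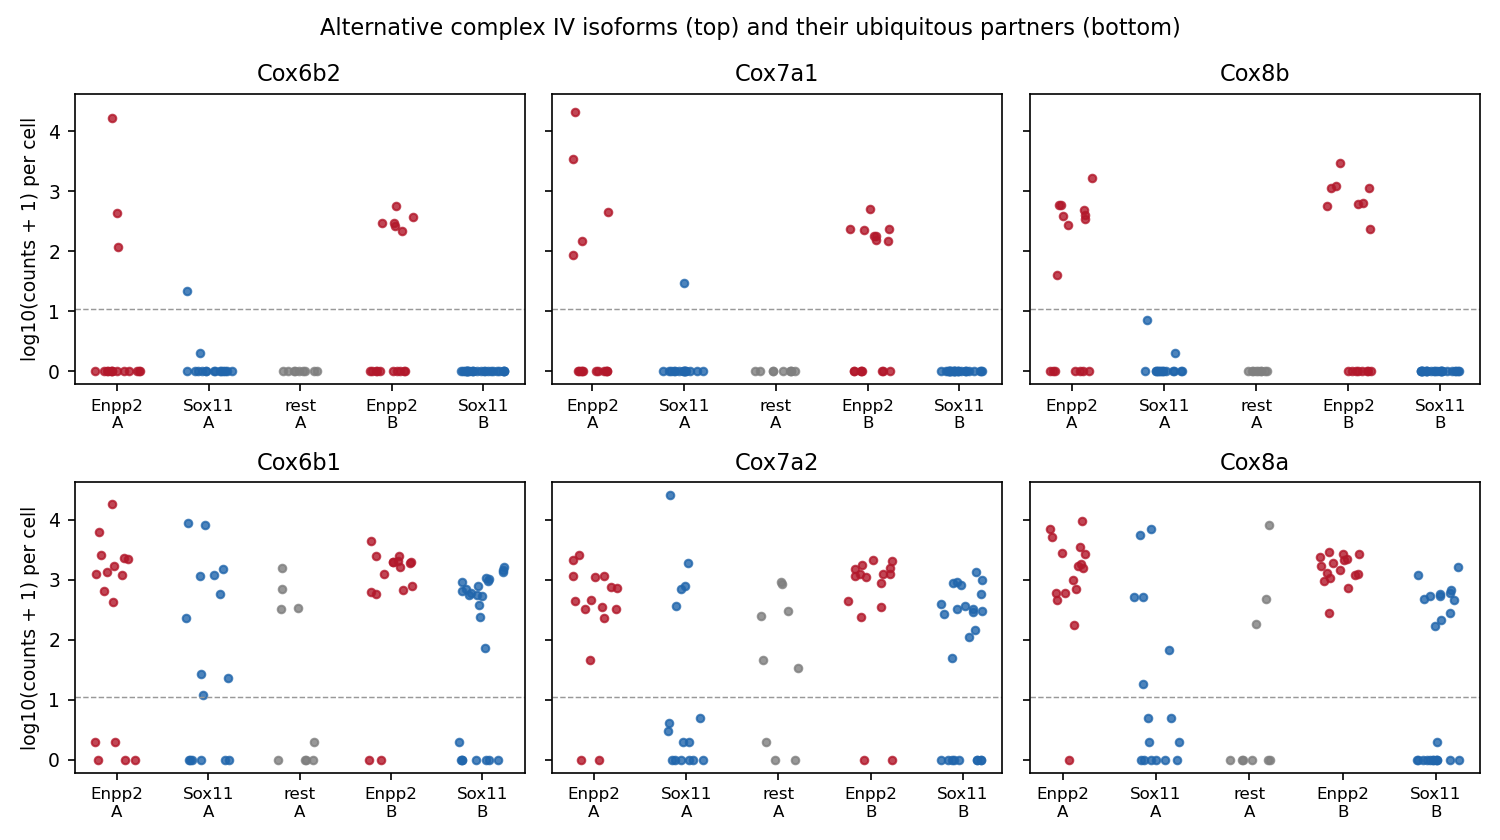
Each point is 1 cell, the vertical axes give log10(counts + 1), the columns of points give class and dataset, and the dashed line marks 10 counts. The alternative isoforms in the upper row lie above the line in 25 of 32 Enpp2-rich cells and 1 of 41 Sox11 cells, whereas their partners in the lower row do so in every class.

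Assembly factors, which build the complexes without staying in them, differed in direction between the datasets. The 18 rows summed to 0.117% and 0.177% of the Enpp2-rich pools and 0.131% and 0.0916% of the Sox11 pools, or 0.896-fold and 1.94-fold. Of 15 tested, 4 were at least 2-fold higher in both datasets and 1 was 2-fold lower in both, against 13.5% and 24.5% of all genes tested, and the median log2 difference in edgeR was 0.62. The latter was Ndufaf2, a complex I factor, at 9.39 and 0 CPM against 30.0 and 23.5 CPM. Enpp2-rich cell C12 gave 95.96% of the first value. Without Sox11 cell G8 the dataset A ratio was 0.639, and the 2-fold rule was then not met. In dataset B 1 cell gave 60.25% of the Sox11 counts, and the pool was at 9.82 CPM without it. Ndufaf5, which hydroxylates a core subunit of complex I, was at 147 and 3.59 CPM in the Enpp2-rich pools and had no count in the Sox11 pools. It reached 10 counts in 3 cells of dataset A and 1 cell of dataset B. Cell G4 gave 70.5% of the first value, which was 46.3 CPM without it. Cox7a2l, a factor that joins complexes III and IV into supercomplexes, was at 28.3 and 97.0 CPM against 312 and 116 CPM. Enpp2-rich cell E9 gave 84.55% of the first value, which was 4.66 CPM without it. The dataset B ratio was 0.467 without 1 Enpp2-rich cell and turned to 1.097 without 1 Sox11 cell. Of the 16 pseudogenes and copies 7 were tested.

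Genes around the respiratory chain were read from lists taken from textbook pathways, and none of them passed edgeR's test; the examples given were chosen after their values were seen. Of 12 tested citric acid cycle genes 5 were at least 2-fold higher in Enpp2-rich cells in both datasets and 0 were 2-fold lower in both, against 13.5% and 24.5% of all genes tested. Dlst, a subunit of the oxoglutarate dehydrogenase complex, was lower in both by any amount, at 0 and 73.0 CPM against 24.6 and 137 CPM. It reached 10 counts in 11 cells. Single cells gave 97.2% of the second value and 91.2% of the third, which were 2.23 and 2.285 CPM without them. Ogdh, a subunit of the same complex, was at 684 and 939 CPM against 33.9 and 70.4 CPM, with 99.1% and 56.6% of the Sox11 counts in single cells. Of 11 electron carriers and partners 8 were higher and 0 were lower by this 2-fold rule. Cycs, cytochrome c, was at 295 and 679 CPM against 44.4 and 30.1 CPM, with 72.2% of the third value from cell H6. Slc25a5, an ADP/ATP carrier, was at 1833 and 3311 CPM against 185 and 104 CPM, with 45.8% of the last value from 1 cell. Of 17 glycolysis genes 8 were higher and 0 were lower by it. Ldhb, a lactate dehydrogenase subunit, was at 4186 and 6271 CPM against 376 and 264 CPM.

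The list of mitochondrial transcription and biogenesis genes differed in direction. Of its 11 tested genes 0 were 2-fold higher in both datasets and 5 were 2-fold lower. Nrf1, a transcription factor of nuclear respiratory genes, was at 3.45 and 0 CPM in the Enpp2-rich pools and at 180 and 21.3 CPM in the Sox11 pools, where single cells gave 85.2% and 92.6% of its counts. Ssbp1, which binds single-stranded mitochondrial DNA, was at 85.7 and 85.2 CPM against 324 and 188 CPM. Its dataset A ratio was 1.03 without Sox11 cell C3 and 0.147 without 1 Enpp2-rich cell. The dataset B ratio of 0.453 was 0.277 without 1 Enpp2-rich cell and 0.624 without 1 Sox11 cell. Most genes of this list had low values. For Pprc1 single cells gave 98.8% and 99.95% of the counts of the Sox11 pools, and for Tfb2m 100% of both. Of all genes tested, 24.5% were 2-fold lower in both datasets.

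The rest, with 9 cells of dataset A, had a median nuclear subunit share near that of the Sox11 cells, but a lower pooled one. Its cells ranged from 0.851% to 11.7%, with a median of 1.36% against 1.498% in Sox11 cells of that dataset. Its highest cell, F12, stood far from the next at 1.68%. In F12 only 3 nuclear members reached 10 counts, namely Ndufa6 with 28119, Ndufs6 with 26371 and Ndufb9 with 25127. Its leading genes were Mbp at 28.8% of counts and Mobp at 14.1%, both of which encode myelin proteins. The pooled nuclear subunit share was 1.74% in the rest and 1.66-fold higher in the Sox11 pool of dataset A, but 1.17-fold higher without Sox11 cell C3 and 1.23-fold without the cells set apart. For complex IV the Sox11 pool was 2.54-fold above the rest, and 1.66-fold and 1.19-fold with these cells left out. For complex V it was 2.69-fold above, and 1.603-fold and 1.34-fold. The pooled mitochondrial share was 4.23% in the rest, 2.91% in the Sox11 pool and 10.4% in the Enpp2-rich pool of dataset A.

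Promoters of the nuclear members were searched for motifs of factors known to act on nuclear respiratory genes. Members higher in Enpp2-rich cells were not compared with the other members, so the search does not bear on the class difference. Stretches around the start site are shown for Uqcr11 and Atp5me, the complex III and V genes that led cell E10, and for Cox8b, the isoform found in the most cells. They are RefSeq sequences of mouse build GRCm38.p6, on the minus strand, from 120 bases before the start to 30 bases from it on. They lie at chr10:80406792-80406941 for Uqcr11, chr5:108434370-108434519 for Atp5me and chr7:140900417-140900566 for Cox8b. Capitals mark motif matches.
Uqcr11: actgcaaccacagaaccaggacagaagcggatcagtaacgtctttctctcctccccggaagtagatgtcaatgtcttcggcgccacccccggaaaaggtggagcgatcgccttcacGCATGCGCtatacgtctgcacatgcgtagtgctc
Atp5me: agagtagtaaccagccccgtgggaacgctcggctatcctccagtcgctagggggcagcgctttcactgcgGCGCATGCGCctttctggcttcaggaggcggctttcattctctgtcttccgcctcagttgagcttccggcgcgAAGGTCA
Cox8b: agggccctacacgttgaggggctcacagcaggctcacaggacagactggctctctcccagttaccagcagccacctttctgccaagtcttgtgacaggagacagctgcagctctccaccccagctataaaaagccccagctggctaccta

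Over windows of 300 bases, from 250 before the start, 82 of 100 nuclear members other than pseudogenes and copies had a promoter in the table, with 88 promoters in all. The letters GCGCATGC, a core of the NRF1 motif, stood on either strand in 13.6% of the 88, against 2.71% of all 32851 promoters and 5.86% of promoters of genes tested. The YY1 letters AAGATGGC stood in 14.8%, against 2.75% and 5.48%. The ERR letters AAGGTCA stood in 9.09%, against 4.72% and 3.19%. Uqcr11 had the NRF1 letters 4 bases before its start. Atp5me had overlapping NRF1 matches on both strands from 50 bases before its start and the ERR letters 23 bases past it, and Cox8b had none of the 3 motifs in its window. A match describes the letters and is not a measured site.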

How the data were processed

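The deposited table held whole-number read counts for 15305 genes in 82 cells, which the authors did not normalise. Libraries were made by oligo-dT priming, template switching and PCR without molecular identifiers, per the labels' protocols. The submitters' processing notes name FastQC 0.12.1, STAR 2.7.10b, featureCounts and Subread 2.1.1, and the builds GRCm39 and mm10 without saying which was used; whether counting used strand is not given in the sources used here. No list of runs was needed, and no cell was filtered out.

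Ttr and Enpp2 were removed before scaling to CPM. Counts were summed per class and dataset, since cells are not replicates, and the 4 pools were tested with edgeR 4.0.16 (quasi-likelihood, filterByExpr, TMM, no block) over all genes, adjusted by Benjamini-Hochberg and called below 0.05. DESeq2 1.42.0 was an alternative. P-values measure only the spread between pools of 2 sorts. The sort pairs the pools of a dataset, and their deviations correlated at 0.345 over 7343 genes. The script was tested on simulated data. The rest had no cell in dataset B, so its planned tests were void. Named genes were the mitochondrial protein-coding members, per complex the 2 in most cells and the highest and lowest log2 difference, and the complex IV isoform list; others are said to be chosen after their values were seen. Members, classes and lists were chosen with earlier results of these data known. Gene overlaps came from GENCODE M39. Other software comprised matplotlib 3.10.9, pandas 2.3.3, scipy 1.17.1, numpy 2.4.6, Python 3.11.15, limma 3.58.1 and R 4.3.3.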

Additional observations from a re-analysis of the deposited data

Results flagged for a closer look

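Among the 9 cells of the rest, cell F12 stood far from the others for 2 of the 7 summed sets examined. Its nuclear subunits took 11.7% of counts, against 1.68% in the next cell, and its nuclear complex I subunits took 11.7%, against 0.613% in the next. The gap to the next cell was 92.35% and 95.77% of the whole range. Both values rest on the same 3 genes, Ndufa6, Ndufs6 and Ndufb9. Chance alone marks about 1 in 20 such groups.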

How the results depend on the processing

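The 7 summed log2 differences between Enpp2-rich and Sox11 cells (means of the datasets, or the value of 1 dataset where the other is left out: mitochondrial, nuclear subunits and complexes I to V) stayed above 0 under every alternative run, from 0.805 to 3.355. No alternative took plate P1 of dataset B alone, and the plate alternative left it out. There the pooled mitochondrial share was 8.56-fold higher in Sox11 cells, so these runs could not show that reversal. Complex III, at 2.85, was at 2.37 with Ttr and Enpp2 kept, 2.94 without mitochondrial rows in the total, 2.00 by medians and 2.42 by means over cells, and 2.13 without the deepest cell of each pool. It was at 2.91 with Enpp2 at 0.5% or more, 2.89 and 2.94 with Sox11 at 1 and 100 or more counts, and 2.17 without cells meeting both rules. It was at 3.355 on plates with 3 or more cells of each class, 2.23 without the 5 cells set apart and 2.15 without cell E10 alone; these last 2 settings were chosen after seeing the data. Complex V, at 1.96, was at 1.34 without the deepest cells, 2.47 with Sox11 at 100 or more counts, 1.39 without cells meeting both rules and 1.36 without cell E10. Complex II, at 1.28, was at 1.96 by medians. The 44 nuclear subunits at least 2-fold higher in both datasets were 43 to 54 in number without cell E10, without the cells set apart and with Sox11 at 100 or more counts, 3 settings chosen after seeing the data; over all genes tested, 13.8% to 13.9% then met the rule. Leaving out the largest cell of a pool was likewise chosen after seeing the data.

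edgeR called 0 genes with RLE factors, library size alone, the dataset as replicate block, other class thresholds and cells left out. Without the filter on low counts it called 258 of 13186 genes (1.96%) and 7 of 140 members (Atp5me, Cox6b2, Cox7a1, Uqcr10, Uqcr11, mt-Cytb and mt-Nd1, all higher). DESeq2 called 2759 of 13186 genes (20.9%) and 7 of 140 members (Cox10, Cox18, Cox6b2, Cox7a1, Cox8b and Ndufaf5 higher, Cox11 lower). Leaving out each pool in turn gave 0 to 205 genes and 0 to 4 members, with 205 and 4 without the Sox11 pool of dataset A and 127 and 1 without that of dataset B; a class left with 1 pool takes its spread from the other class. The cause of these changes was not tested. Without the Sox11 pool of dataset A 9997 genes were tested, of which 133 were members. Without that of dataset B 8785 genes were tested, of which 133 were members. Both fits leave 1 Sox11 pool, so their counts of members are not read as an excess over all genes tested. With the replicate block, which pairs pools by sort, 602 genes had an unadjusted p under 0.05, and no call changed.

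Among named genes, 4 changed sign in 15 of 612 refits. Cox7a2, at -0.07, was at 0.043 with RLE factors, 0.016 in DESeq2, 0.53 with the replicate block, 1.92 with Sox11 at 100 or more counts and 1.76 without the cells set apart. Atp5if1, at 0.58, was at -0.34 without the deepest cells, -0.53 without cells meeting both rules and -0.77 without the cells set apart. Uqcrb, at 0.09, was at -0.089 without the deepest cells. Without each pool in turn, Cox7a2 ranged from -0.88 to 1.97, Uqcrb from -0.73 to 2.21, Atp5if1 from -0.82 to 1.49 and Cox6a1 from -0.40 to 3.10.

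The planned fits with 6 pools and the comparisons with the rest were not run, since dataset B held no cell of the rest; a fit of 5 pools, added later, called 0 genes. With 2 pools a class and a dispersion of 3.42, edgeR with the filter on low counts called no difference of the sizes given. PCR reads without molecular identifiers are not independent molecules.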
